A study of Mus musculus with 59 samples.

Results

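The 20 libraries described here come from the prefrontal cortex of mice that had received lithium: 10 libraries from mice labelled heterozygous for Ank2 (HT) and 10 from wild-type mice (WT). They were chosen by their titles, which give genotype and drug, out of 59 libraries in the series. Each genotype had 5 female and 5 male libraries. All mice were of strain C57BL/6J, had been given the drug through the mother's milk from day 3 to day 24 after birth (3 weeks), and were sampled on day 25. The same genotypes and sexes were also studied after vehicle (20 libraries) and after fluoxetine, a serotonin reuptake inhibitor (19 libraries), and these serve here only as a comparison for the effect of genotype under lithium. Genotype is given as heterozygous, with no description of the allele, and the labels give neither the dose that reached a pup nor its litter. The labels number the replicates without saying that they are separate animals, so p-values measure the spread between these libraries, which may be technical.

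Ankyrin-B, the product of Ank2, is a scaffold that ties membrane proteins and organelle transport to the spectrin and actin cytoskeleton. In neurons a giant splice form is found along axons, and disrupting variants of the human gene recur in autism. Lithium, a mood stabiliser, inhibits glycogen synthase kinase 3 and inositol monophosphatase.

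Values are normalised counts, and a change is the difference of mean log2(value + 1), HT minus WT, with its standard error (SE) from limma. A gene was called where its p, adjusted over 16919 genes after Benjamini and Hochberg, was under 0.05. Over all genes tested, an unadjusted p under 0.05 was held by 16.3% in the sexes together, 16.6% in females and 12% in males. Counts of such genes in the lists below stand against these shares. The values of a lithium library summed to 30.8 M to 33.1 M (mega), and 22695 to 23626 genes were above 0. Markers of the labelled tissue were present in all 20 libraries: none of the 11 upper-layer, 16 deep-layer and 13 excitatory neuron markers was at 0 in any of them. A few libraries stood apart in markers of neighbouring tissue. HT lithium male replicate 1 was high in 19 striatal markers (median deviation from the lithium mean 1.39 on the log2 scale, against -0.17 to 0.25 in the other HT males), and HT lithium male replicate 2 was low in 15 olfactory bulb markers (-2.98) and had the lowest Ddx3y of the 10 males (669, against 1600 or more in the WT males). WT lithium female replicate 2 was high in 7 blood cell markers (1.25) and low in 26 myelin markers (-0.89). Counts over all genes, the named genes and the lists that follow these markers are also given without these 3 libraries, a check chosen after seeing the data. That check kept WT lithium male replicate 1, which had the highest olfactory bulb level of the 20 (2.04) and the lowest excitatory neuron level (-0.39). It also kept HT lithium female replicate 2, which was low in olfactory bulb markers (-1.91).

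Ank2 was lower in every HT than in every WT library. The gene (ENSMUSG00000032826) lies on chromosome 3 from 126921612 to 127499350 in build GRCm38. In HT lithium females it measured 19724, 21947, 21806, 21195 and 21634, and in WT lithium females 26905, 27316, 27565, 28809 and 27472. In HT lithium males it measured 19173, 18076, 18610, 19621 and 19012, and in WT lithium males 25376, 26710, 29171, 27511 and 28245. The highest HT library (21947) therefore stood below the lowest WT library (25376), and the 5 HT females all stood above the 5 HT males. The mean was 20080 ± 1438 (SD, n = 10) in HT and 27508 ± 1085 (SD, n = 10) in WT, a log2 change of -0.46 (SE 0.04, adjusted p = 3.3e-12). A permutation test of the 20 libraries gave a two-sided p of 2e-05, the smallest that 100000 resamples can give, and the exact test within each sex gave 0.0079, the smallest possible with 5 against 5.

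The fall was -0.38 in females (adjusted p = 1.5e-05) and -0.53 in males (adjusted p = 3e-09), and the difference between the sexes did not pass the test (adjusted p = 0.35). Once a trend with transcript length and GC content had been removed, the female change was -0.49. Under vehicle the change was -0.54 and under fluoxetine -0.59. The lithium effect did not pass the test of a difference from either (adjusted p = 0.78 and 0.26). The labels do not describe the altered allele, so these values count all Ank2 transcripts together. Of 17 other tested genes inside Ank2 or within 2 Mb of it, 0 were called by limma and 2 had an unadjusted p under 0.05, with changes from -0.21 to 0.63. The 2 were the predicted genes Gm42972 (0.63, adjusted p = 0.22) and Gm43322 (0.41, adjusted p = 0.17). Both lie within the span of Ank2, as do Gm42970 (0.36) and A930036I15Rik (-0.04). How they relate to the altered allele was not tested.

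**Figure D1:**
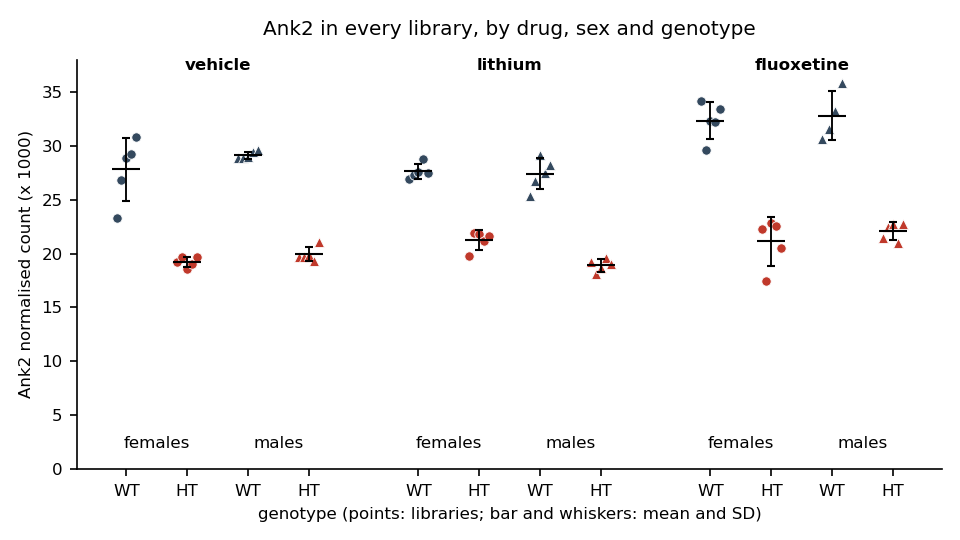
Ank2 normalised count divided by 1000 (vertical axis, from 0) for every library, by drug, sex and genotype; points are libraries (circles female, triangles male, red HT, dark WT) and the bar with whiskers is the mean with SD. In the lithium panel all HT libraries lie at or below 21947 and all WT libraries at or above 25376.

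Beside Ank2, 2 other members of the ankyrin and spectrin family changed, and both rose. The list of 23 genes held ankyrins, spectrins and their membrane skeleton partners. Ank3, which encodes ankyrin-G, the organiser of the axon initial segment, ranged from 11880 to 16373 in HT (median 15045) and from 11633 to 13485 in WT (median 12829). Of the 10 HT libraries, 9 lay above every WT library, and HT lithium male replicate 2 held the value of 11880. The log2 change was 0.22 (SE 0.04, adjusted p = 0.0063), with 0.33 in females (adjusted p = 0.00035) and 0.10 in males (adjusted p = 0.49). Sptbn1, the main beta-spectrin of the brain's membrane skeleton, ranged from 33434 to 40131 in HT (median 36169) and from 31540 to 34508 in WT (median 33668), a log2 change of 0.11 (SE 0.03, adjusted p = 0.031). Its groups overlapped: the change was 0.21 in females and 0.01 in males, and the sex difference passed the test (-0.20, adjusted p = 0.049). That sex difference was not called with length and GC content removed (-0.07, adjusted p = 0.68), with the replicate numbers as a block (adjusted p = 0.054), without a filter on low values (0.072) or without the 3 libraries that stood apart (0.16). With length and GC content removed, Ank3 stayed called (0.20, adjusted p = 0.0075) and Sptbn1 did not (0.09, adjusted p = 0.084).

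In all, 3 of the 23 family members were called, 2 higher and 1 lower, against 0.55% of all genes tested. The 1 lower was Ank2, the altered gene itself, so its call says nothing about the rest of the family. The 2 higher stand against 0.231% of all genes called higher. With length and GC content removed 1 member was called higher, and without the 3 libraries that stood apart also 1. The median change of the list was 0.08 with 20 members above 0, against 0.00 for all genes. The 26 genes listed as binding partners of ankyrin-B held no called gene. Among them were the inositol trisphosphate receptor Itpr1 (0.21, adjusted p = 0.15) and the cell adhesion gene Chl1 (0.20, adjusted p = 0.21). Of the 26, 5 (19.2%) had an unadjusted p under 0.05, near the 16.3% of all genes. The median change of the 26 was 0.03. Voltage-gated sodium channels, which ankyrins anchor, gave a median of 0.10 over 11 genes with 0 called and 3 at an unadjusted p under 0.05. Scn2b, a beta subunit, had the smallest p of that list at a value of 0.22 (adjusted p = 0.073).

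Over all genes, 93 were called under lithium, 39 higher in HT (0.231% of those tested) and 54 lower (0.319%), and 2759 had an unadjusted p under 0.05. Most of the called changes were small: 76 of the 93 were under 0.3 on the log2 scale, and 4 were over 2-fold. The sign was the same in both sexes for 39 of the 39 higher genes and for 43 of the 54 lower genes. Genes were called on the mean of the female and male changes, which favours a shared sign, so this is no separate test. Of the 93 genes, 76 were also called in females. Predicted genes made up 7 of the 93. Leaving out single libraries moved the count by over 1.5 times in 14 of 20 cases, between 15 (without WT lithium male replicate 1) and 141 (without WT lithium female replicate 4). Without the 3 libraries that stood apart, and with WT lithium male replicate 1 kept, 16 genes were called, 15 of them among the 93. Of the 38 called genes taken up by the naming rule, 11 stayed called without them (among them Ank2, mt-Nd6, Ank3, Tmem256, Rps18, Rpl27, Rps14, Elob, Cops9 and Rpl26) and 27 did not, while all 38 kept their sign and at least 0.705 times their change.

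The largest rises with the same sign in both sexes included mt-Nd6, Foxp1, Prrt2, Inf2, Mocs3, Arid5b, Shank1, Rgs7bp, Gatad1, Ank3 and Tomm34. The mitochondrial gene mt-Nd6, a subunit of complex I and the protein-coding gene of the opposite mitochondrial strand, ranged from 1492 to 2661 in HT (median 1759) and from 1115 to 1765 in WT (median 1282). The groups overlapped through 1 WT library at 1765, and 5 HT libraries lay above it. Its log2 change was 0.51 (SE 0.09, adjusted p = 0.003), the largest of them. Foxp1, a forkhead transcription factor linked to autism and intellectual disability, ranged from 2557 to 3440 in HT (median 2752) and from 2046 to 2583 in WT (median 2251), with 8 HT libraries above every WT library. Its log2 change was 0.31 (SE 0.07, adjusted p = 0.035), close in females (0.35) and males (0.28).

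Foxp1 is also a marker of striatal neurons, and the other striatal markers are described below. Leaving out single libraries kept Foxp1 called in 12 of 20 cases, and without the 3 libraries that stood apart the change was 0.31 with an adjusted p of 0.11. Gatad1, a zinc finger protein that reads histone marks, measured 1543, 1669, 1761, 1763 and 1831 in HT females against 1301 to 1515 in WT females, and 1568 to 1804 in HT males against 1352 to 1662 in WT males. Its groups did not overlap in females and did in males. It rose by 0.22 (adjusted p = 0.012) and stayed called in all 20 cases with a library left out, but not without the 3 libraries that stood apart (0.21, adjusted p = 0.065). Prrt2, a presynaptic protein of the release machinery whose loss causes paroxysmal movement disorders, ranged from 5225 to 5761 in HT (median 5500) and from 3713 to 5479 in WT (median 4570). The HT values were closely spaced and the WT values reached into them. Its change was 0.28 (adjusted p = 0.045), and it stayed called in 4 of 20 cases with a library left out.

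The rest of these rises showed smaller changes. Inf2, an actin-severing formin, rose by 0.27 (adjusted p = 0.017) and was no longer called without WT lithium male replicate 1. Arid5b, a chromatin regulator, rose by 0.24 (adjusted p = 0.023), and Mocs3, which serves molybdenum cofactor synthesis, by 0.24 (adjusted p = 0.043). Rgs7bp, which anchors a regulator of G-protein signalling at the membrane, rose by 0.22 (adjusted p = 0.046). Tomm34, a cytosolic chaperone of mitochondrial import, rose by 0.21 (adjusted p = 0.039). Shank1 is described with the synapse genes. Among these 11 rises, mt-Nd6, Gatad1 and Ank3 stayed called with each of the 20 libraries left out in turn, and the other 8 in 4 to 19 of the 20 cases.

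The 12 largest falls, among called genes averaging at least 50 with the same sign in both sexes, were Stat5a, Mkrn3, Ank2, Plod2, Ilvbl, Dbi, Tmem256, Slirp, Coro1b, Dynlt1a, Uqcr10 and Rps18. Stat5a, a transcription factor downstream of cytokines and prolactin, ranged from 34.4 to 69 in HT (median 53.4) and from 53.2 to 167 in WT (median 74.3). These are low values with overlapping groups, and the change was -0.62 (SE 0.16, adjusted p = 0.048). Mkrn3, an imprinted gene that restrains the onset of puberty, ranged from 55.5 to 88.3 in HT (median 79.8) and from 69.7 to 144 in WT (median 117), a change of -0.54 (SE 0.12, adjusted p = 0.021). Plod2, a collagen lysyl hydroxylase, ranged from 198 to 284 in HT (median 229) and from 263 to 348 in WT (median 300). In 8 of 10 HT libraries it lay below every WT library, in males without overlap (198 to 230 against 263 to 332). Its change was -0.38 (SE 0.08, adjusted p = 0.0098), with -0.26 in females and -0.51 in males, and it stayed called in all 20 cases with a library left out, but not without the 3 libraries that stood apart (-0.37, adjusted p = 0.073). In males, where Plod2 fell most, all 18 markers of fibroblasts and meninges were also below 0 (median -0.30), and their part in its change was not tested.

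Dbi, the acyl-CoA binding protein that also acts on GABA type A receptors, ranged from 2324 to 2827 in HT (median 2403) and from 2703 to 3647 in WT (median 3066), a change of -0.33 (SE 0.08, adjusted p = 0.047). It fell to a like degree in both sexes (-0.36 and -0.30, neither called alone). Ilvbl, a lyase of fatty acid breakdown, also had like values in both sexes (-0.32 and -0.35). The remaining falls were larger in females. Tmem256 changed by -0.58 in females and -0.04 in males, Slirp, which stabilises mitochondrial mRNAs, by -0.54 and -0.05, and Uqcr10, a subunit of complex III, by -0.51 and 0.00. Coro1b, an actin regulator, changed by -0.40 and -0.14, and the dynein light chain gene Dynlt1a by -0.32 and -0.19. With each library left out in turn, Ank2, Plod2 and Rps18 stayed called in all 20 cases, and the other 9 falls in 2 to 18. The sex difference was called for Tmem256 (0.54, males minus females, adjusted p = 0.04) and Uqcr10 (0.51, adjusted p = 0.033) and not for the other 3.

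**Figure D2:**
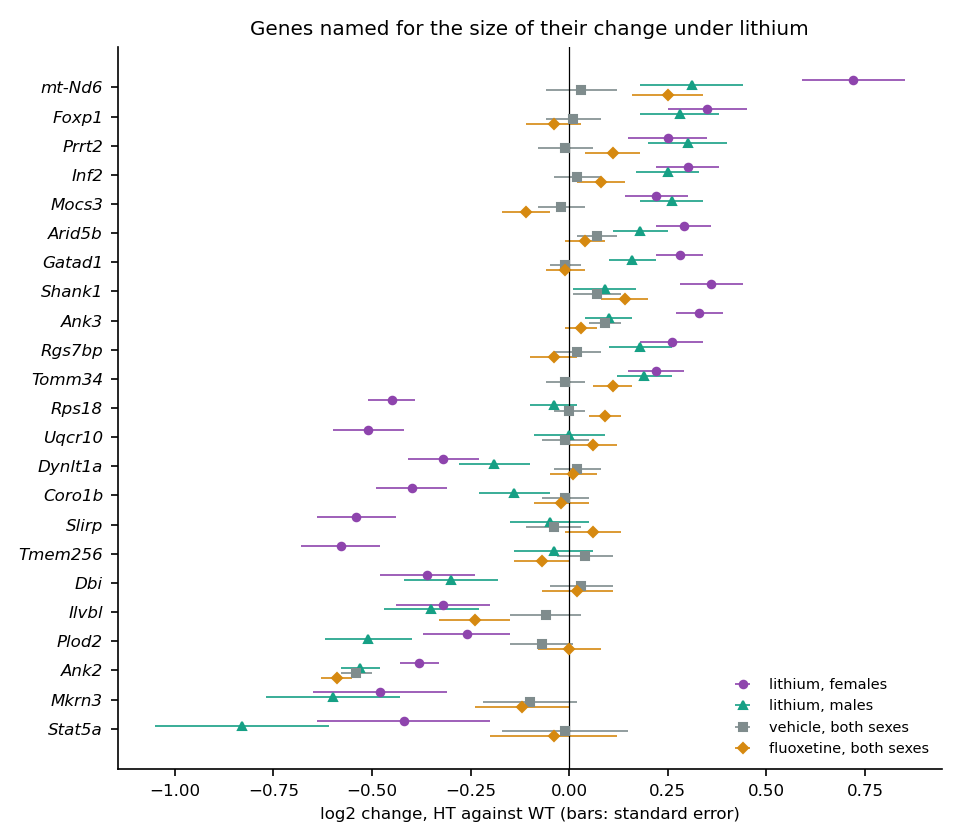
Log2 change, HT against WT, with its SE (horizontal axis) for 11 of the largest rises and the 12 largest falls under lithium among called genes of the same sign in both sexes, shown for lithium females, lithium males, vehicle and fluoxetine. Ank2 is low in all 4 comparisons, while Foxp1 lies at 0.35 and 0.28 under lithium and at 0.01 and -0.04 under vehicle and fluoxetine.

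Synaptic genes were mostly above 0 by small amounts. Of 34 genes of presynaptic release, 2 rose, 0 fell and 31 had a change above 0, with a median of 0.08, where 0.231% of all genes were called higher and 49.1% were above 0. Syn1, the synaptic vesicle phosphoprotein synapsin I, ranged from 17254 to 20405 in HT (median 18931) and from 15038 to 17777 in WT (median 16463), a change of 0.20 (SE 0.05, adjusted p = 0.04). Pclo, which encodes the active zone scaffold piccolo, ranged from 12740 to 14048 in HT (median 13424) and from 10726 to 12809 in WT (median 11824), a change of 0.19 (SE 0.05, adjusted p = 0.046). Both ranges met at their edge. Each of the 2 stayed called in 4 of 20 cases with a library left out, and neither without a filter on low values or without the 3 libraries that stood apart (adjusted p = 0.14 for Syn1 and 0.17 for Pclo). The median deviation of the list from the lithium mean was 0.04 to 0.09 in HT females against -0.08 to 0.03 in WT females, and -0.02 to 0.07 in HT males against -0.12 to -0.01 in WT males. The groups thus separated in females and overlapped through 1 library (HT lithium male replicate 1) in males. With length and GC content removed the females overlapped as well, at -0.02 to 0.08 in HT and -0.09 to 0.04 in WT.

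Of 23 postsynaptic scaffold genes 1 rose and 20 were above 0 (median 0.09), against the same 0.231% and 49.1% of all genes. Shank1, a core scaffold of the postsynaptic density, ranged from 15174 to 25674 in HT (median 21034) and from 14962 to 20080 in WT (median 17997), a change of 0.22 (adjusted p = 0.047) that measured 0.36 in females and 0.09 in males and stayed called in 4 of 20 cases with a library left out. Glutamate receptor genes gave a median of 0.07 over 28 genes with 0 called in the sexes together, and Grin2b, a subunit of the NMDA receptor, was called in females (0.33, adjusted p = 0.012; males 0.04). GABA receptor and inhibitory synapse genes (21) held no called gene (median 0.06, 8 with an unadjusted p under 0.05), with Gabbr1, a subunit of the GABA type B receptor, nearest at 0.11 (adjusted p = 0.051). Potassium channels (46 genes, median 0.07) and calcium channels (18 genes, median 0.08) held no called gene either, with 13 and 4 genes at an unadjusted p under 0.05. These were 28.3% and 22.2% of the lists, against 16.3% of all genes.

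Of 94 autism risk genes 3 rose (Foxp1, Ank3 and Celf4), where 0.231% of all genes were called higher, with a median of 0.06. The 1 that fell was Ank2, the altered gene itself. Celf4, a neuronal RNA-binding protein, ranged from 13081 to 14886 in HT and from 11981 to 13992 in WT, a change of 0.11 (adjusted p = 0.048). It stayed called in 3 of 20 cases with a library left out. It was not called with length and GC content removed (adjusted p = 0.051) or without the 3 libraries that stood apart (0.093). Without those 3 libraries, 1 of the 94 was called higher. In females 12 of the 94 rose and 2 fell, Ank2 among them, where 1.25% of all genes were called higher and 2.57% lower. In males Ank2 alone was called. The 12 became 5 without HT lithium female replicate 2 or without WT lithium female replicate 1, and 6 without WT lithium female replicate 5. The female count was 2 higher and 1 lower once length and GC content had been removed.

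Genes tied to lithium's targets were called in small number, and in females. Of 44 genes of glycogen synthase kinase 3 and Wnt signalling, 0 were called in the sexes together, with 14 at an unadjusted p under 0.05 and a median of 0.01. In females 4 rose (1.25% of all genes did), among them Gsk3b, the kinase that lithium inhibits (0.25, adjusted p = 0.021; males 0.07), and its substrates Map1b (0.35, adjusted p = 0.01; males 0.05) and Dpysl2 (0.32, adjusted p = 0.016; males 0.11), both of which bind microtubules. The 4 became 1 without HT lithium female replicate 2 and 2 without HT lithium female replicate 3. With length and GC content removed, 0 rose and 1 fell. Of 35 genes of inositol metabolism 0 were called in the sexes together (median 0.01). An unadjusted p under 0.05 was held by 6 of them (17.1%), near the 16.3% of all genes. Slc2a13, a transporter that takes up inositol, stood at 0.22 (adjusted p = 0.074), with 0.21 in females and 0.23 in males. Of 25 genes of cholesterol synthesis 23 were above 0 and 0 were called, with a median of 0.09 and 10 at an unadjusted p under 0.05, among them Srebf2, the master regulator of the pathway (0.10, adjusted p = 0.12).

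Immediate early genes, which mark recent neuronal activity, were mostly below 0. Of 50 genes, 38 were below 0, 0 were called and 19 had an unadjusted p under 0.05, all of them lower, with a median of -0.14. Ccn1, a secreted matrix protein induced by growth factors, ranged from 59.6 to 179 in HT (median 125) and from 96.7 to 365 in WT (median 205), a value of -0.74 (SE 0.19, adjusted p = 0.056). Btg2, an antiproliferative immediate early gene, ranged from 197 to 682 in HT (median 403) and from 363 to 930 in WT (median 730), a value of -0.72 (adjusted p = 0.062). The groups overlapped widely for both. Ier2 stood at -0.56 (adjusted p = 0.07) and Dusp1, a phosphatase that ends kinase signalling, at -0.58 (adjusted p = 0.09). The median of the list was -0.07 in females and -0.28 in males. Its level by library was -0.46 to 0.04 in HT males against -0.14 to 0.25 in WT males, with HT lithium male replicate 2 the lowest of all. In the same HT males olfactory bulb markers were also low, and the part of dissection in these values was not tested.

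More genes were called in females than in males, though a count of calls does not itself test a difference between the sexes. In females 646 genes were called (3.82% of those tested), 212 higher and 434 lower, while in males 2 were called (0.0118%), both lower, with 2030 at an unadjusted p under 0.05. The 2 were Ank2 and Strc, the low gene of the inner ear protein stereocilin, named here after its values were seen: 0.726 to 4.82 in HT males against 9.76 to 45.4 in WT males, with a log2 change of -2.78 (adjusted p = 0.018). The groups did not overlap in males, but Strc also ranged from 3.78 to 20.5 in HT females and from 11.7 to 29.1 in WT females, and the lowest library of each HT group, HT lithium female replicate 2 (3.78) and HT lithium male replicate 2 (0.726), was also the lowest of its group in olfactory bulb markers (-1.91 and -2.98). Leaving out a library moved the female count by over 1.5 times in 3 of 10 cases (333 without HT lithium female replicate 3, 369 without HT lithium female replicate 2 and 373 without WT lithium female replicate 1). In males 1 gene was called in 6 of 10 such cases and 4 without WT lithium male replicate 3. With length and GC content removed, 224 genes were called in females and 2 in males. Of the 646 genes called in females 373 (57.7%) had the opposite sign in males. The share of opposite signs over all genes was not counted, but 49.8% of all genes were above 0 in females and 50.4% in males. The 57.7% is therefore not read as a reversal between the sexes. Across 13933 genes averaging at least 50, the female and male changes, which come from separate libraries, had a Pearson correlation of 0.02.

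Genes of the ribosome and of oxidative phosphorylation fell in females. Of 77 ribosomal protein genes, 45 were called lower in HT females and 0 higher, against 2.57% of all genes called lower, with a median of -0.23. In males 0 were called, 1 had an unadjusted p under 0.05, and the median was -0.02. Of 74 nuclear genes of oxidative phosphorylation, 48 were called lower in females and 0 higher, with a median of -0.24, and in males 0 were called, 1 had an unadjusted p under 0.05, and the median was 0.04. Without WT lithium female replicate 2 the female counts were 42 and 43. Leaving out single libraries gave as few as 36 and 31, the 31 without HT lithium female replicate 3. The 13 mitochondrially encoded mRNAs did not move with the nuclear genes of the same complexes: their median in females was 0.15, with 2 called higher, and in males 0.11.

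The levels by library showed where the difference lay. The median deviation of the ribosomal protein genes from the lithium mean was -0.23 to -0.15 in the 5 HT females, against 0.03 to 0.13 in WT females, 0.00 to 0.08 in HT males and 0.01 to 0.11 in WT males. The nuclear genes of oxidative phosphorylation lay at -0.19 to -0.11 in HT females, against 0.01 to 0.10 in WT females, 0.00 to 0.13 in HT males and -0.02 to 0.07 in WT males. For both lists the 5 HT females stood below all 15 other lithium libraries. The other 3 groups overlapped with each other.

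**Figure D3:**
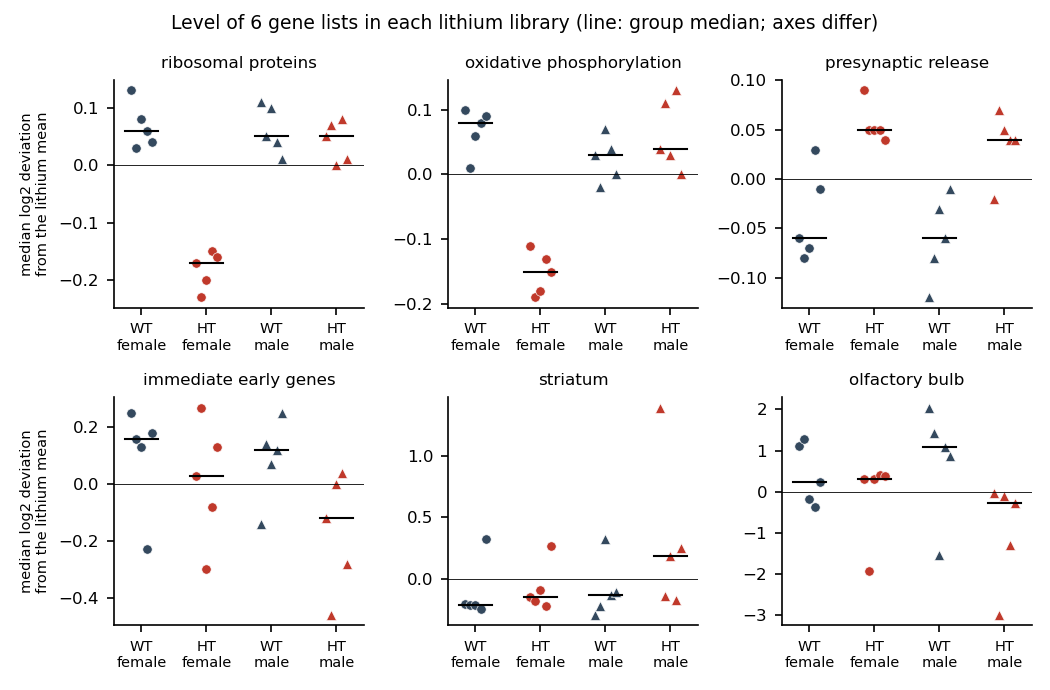
Median log2 deviation of each of 6 gene lists from the mean of the 20 lithium libraries (vertical axes, which differ between panels) by genotype and sex; points are libraries and lines group medians. The HT females are lowest for ribosomal proteins (-0.23 to -0.15) and oxidative phosphorylation (-0.19 to -0.11), and single libraries stand apart for the striatal (1.39) and olfactory bulb (-2.98) markers.

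A test of the difference itself called 118 genes (0.697% of those tested), 96 with a higher effect in males than in females (0.567%) and 22 with a lower one, and 97 of the 118 were also called in females. Rpl27, a protein of the large ribosomal subunit, had the smallest p. It measured 1505, 1650, 1419, 1415 and 1406 in HT females and 2464, 2070, 2344, 2105 and 2311 in WT females. In HT males it measured 2089, 2081, 2334, 2044 and 2415, and in WT males 2091, 1946, 2381, 2135 and 2080. The HT females lay below every other lithium library, and the males of both genotypes overlapped. The change was -0.61 in females (adjusted p = 3.3e-07) and 0.04 in males, a difference of 0.65 (SE 0.10, adjusted p = 0.00062).

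The next were Elob, Psmb3, Cops9 and Usmg5, and all 4 had the same shape. Elob, the elongin B subunit of ubiquitin ligases, measured 1995 to 2101 in HT females and 2484 to 2827 in WT females, against 2565 to 2793 and 2446 to 2798 in males, a difference of 0.40 (adjusted p = 0.0035). Psmb3, a subunit of the proteasome core, gave a difference of 0.38 (adjusted p = 0.0053), and Cops9, a small subunit of the COP9 signalosome, one of 0.52 (adjusted p = 0.01). Usmg5, a small subunit of the mitochondrial ATP synthase, gave 0.47 (adjusted p = 0.01). Each of the 4 had all 5 HT females below every WT lithium library. Of the ribosomal protein genes 9 were called for the sex difference, and of the nuclear oxidative phosphorylation genes 16. Leaving out single libraries gave 28 genes called for the sex difference over all genes (without HT lithium female replicate 3) to 267 (without HT lithium female replicate 1), and moved the count by over 1.5 times in 16 of 20 cases. Without the 3 libraries that stood apart, 12 genes were called in place of 118, with 1 ribosomal and 3 oxidative phosphorylation genes among them.

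**Figure D4:**
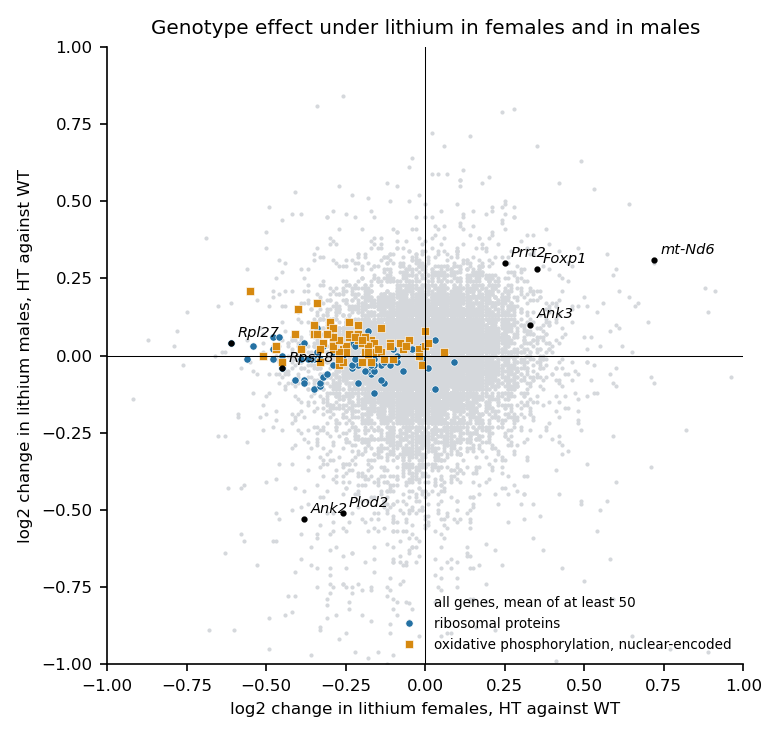
Log2 change, HT against WT, in lithium females (horizontal axis) and in lithium males (vertical axis) for 13933 genes averaging at least 50, of which 92 lie outside the axes; blue circles are ribosomal proteins and orange squares nuclear oxidative phosphorylation genes. Both lists spread to the left along the horizontal axis (medians -0.23 and -0.24 in females, -0.02 and 0.04 in males).

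The female changes followed transcript length. Genes with transcripts under 1000 bases had a median change of -0.20 in females, those of 1000 to 2000 bases -0.08, those of 2000 to 4000 bases -0.02, those of 4000 to 8000 bases 0.04 and those of 8000 bases or more 0.10. In males the same classes gave 0.03, 0.04, 0.01, 0.00 and -0.02. The median transcript length was 6410 bases among genes called higher in females, 1366 among those called lower, and 3261 over all genes tested. For each library the length slope was taken as the slope of a gene's log2 deviation on the log2 of its transcript length over 10789 genes. It was -0.003 to 0.063 per doubling of length in HT lithium females (median 0.054) and -0.042 to -0.007 in WT lithium females (median -0.031), without overlap. The difference of the means was 0.073, and the exact two-sided permutation p of 0.0079 became 0.048 after Benjamini-Hochberg adjustment over 6 comparisons.

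In males the slope was -0.068 to -0.021 in HT and -0.045 to -0.009 in WT, a difference of -0.020 (exact permutation p = 0.095, adjusted 0.22). The fluoxetine libraries of both genotypes, by comparison, had slopes of -0.015 to 0.101, and among the vehicle libraries only HT vehicle female replicate 1 (0.075) lay above 0. Once a trend with length and GC content had been removed from each library, 224 genes were called in females, 84 higher and 140 lower, and 190 of the 646 were among them. Of the ribosomal protein genes 21 were then called lower (median -0.15), all 21 among the 45, and of the nuclear oxidative phosphorylation genes 15 (median -0.13), all 15 among the 48. In the sexes together 37 genes were called, 30 of the 93 among them, and for the sex difference 18 were called, 17 of the 118 among them.

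**Figure D5:**
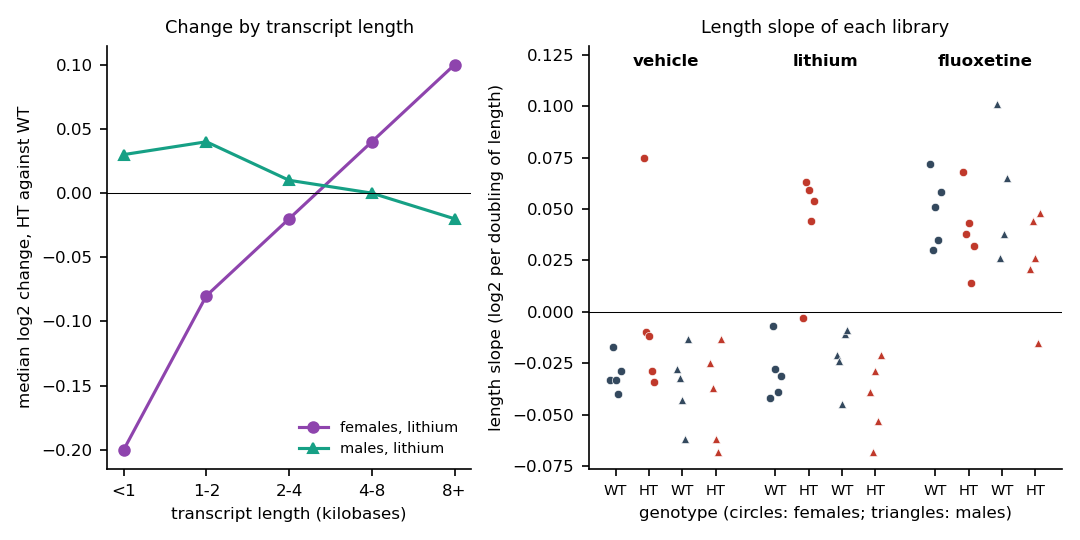
Left, median log2 change, HT against WT, by class of transcript length in kilobases for lithium females and lithium males; right, length slope of each library by drug, sex and genotype. Among lithium libraries, 4 of the 5 HT females lie above 0, and the females' medians run from -0.20 for the shortest class to 0.10 for the longest.

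Set beside the same comparison after vehicle or fluoxetine, the genotype effect under lithium held more called genes, but few genes differed in a direct test. Under vehicle 1 gene was called (0.00591%), and under fluoxetine 2 (0.0118%), Ank2 among them in both, with 578 and 2659 genes at an unadjusted p under 0.05 against 2759 under lithium. In fluoxetine females alone 66 genes were called (0.39%), and in fluoxetine males 1 (0.00591%). The difference between the lithium and the vehicle effect was called for 0 genes (0%) by limma, with 1139 at an unadjusted p under 0.05 and 217 called when libraries were weighted by their spread. Without HT vehicle female replicate 1, 5 genes were called. The smallest adjusted p was that of Sat1, the rate-limiting enzyme of polyamine breakdown, at 0.23. It measured 1120 to 1280 in HT lithium females and 1391 to 1946 in WT lithium females, without overlap, and 1088 to 1517 against 1179 to 1408 in males. Its change was -0.22 under lithium (adjusted p = 0.046) and 0.15 under vehicle. The call under lithium held in 6 of 20 cases with a library left out. It was lost with length and GC content removed (-0.18, adjusted p = 0.14) and without the 3 libraries that stood apart (-0.21, adjusted p = 0.12).

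Between the lithium and the fluoxetine effect, 4 genes were called (0.0236%), all with a lower effect under lithium: Rps18, Rps14, Elob and Wbp1l. Rps18, a protein of the small ribosomal subunit, measured 2822, 2677, 2698, 2807 and 2810 in HT lithium females, below all 5 WT lithium females (3599 to 3976), while lithium males of both genotypes lay between 3327 and 3997. Its mean under fluoxetine was 2952 ± 226 (SD, n = 10) in HT and 2782 ± 136 (SD, n = 9) in WT, and under vehicle 3719 ± 345 and 3696 ± 189 (SD, n = 10 each). The HT lithium females thus lay near the fluoxetine means, and the other lithium libraries near the vehicle means. The labels give no batch of library preparation or sequencing, so a batch shared by some of these libraries cannot be told apart from the groups. The difference of the 2 effects was -0.33 (SE 0.06, adjusted p = 0.024), and it stayed called in 28 of 39 cases with a library left out. Rps14 gave -0.34 (adjusted p = 0.048), Elob -0.24 (adjusted p = 0.048) and Wbp1l, a membrane protein that binds ubiquitin ligases, -0.24 (adjusted p = 0.048). With a library left out these 3 stayed called in 15, 17 and 13 of 39 cases, and with length and GC content removed Elob (adjusted p = 0.28) and Wbp1l (0.089) were not called.

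Wbp1l differed from the ribosomal genes in that its change was -0.08 in lithium females and -0.08 in lithium males, neither called, against 0.16 under fluoxetine. Across the 13933 genes, the lithium effect correlated at 0.18 with the vehicle effect and at 0.31 with the fluoxetine effect, which come from separate libraries. By sex the values were 0.38 (vehicle) and 0.46 (fluoxetine) for males and 0.10 and 0.06 for females. All of these include Ank2.

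Marker genes of neighbouring tissues and other cells were compared last, since in bulk tissue fewer cells of a type and less RNA per cell cannot be told apart. Of 41 lists, 8 held a called gene in the sexes together. All 15 olfactory bulb markers were below 0 (median -1.13, and -0.83 without the 3 libraries that stood apart), with 0 called and 10 at an unadjusted p under 0.05. All 15 were also below 0 under vehicle (median -0.53) and under fluoxetine (-1.09). The summed value of these markers under lithium ranged from 2520 to 10114 in HT females, 6103 to 18114 in WT females, 2052 to 7262 in HT males and 3168 to 27545 in WT males, and 1 marker was at 0 in some HT libraries. Cdhr1, a cadherin of mitral and tufted cells, ranged from 76.1 to 2323 in HT (median 1393) and from 516 to 6169 in WT (median 2976), a value of -1.27 (adjusted p = 0.21). The groups overlapped widely.

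Of 19 striatal markers, 16 were above 0 with a median of 0.28, and Foxp1 alone was called. Without the 3 libraries that stood apart, 13 were above 0 with a median of 0.11. In females 12 of the 19 were above 0 (median 0.05), and in males 16 (median 0.28). Their summed value was 16834 to 36030 in HT males, with HT lithium male replicate 1 the highest, and 15154 to 20236 in WT males, while in females it was 16834 to 19971 in HT and 15712 to 18775 in WT. Ppp1r1b, which encodes the striatal phosphoprotein DARPP-32, had -0.05 in females, where Foxp1 had 0.35. In males the values were 0.61 for Ppp1r1b and 0.28 for Foxp1. Of 26 oligodendrocyte and myelin markers 25 were above 0 (median 0.21, and 0.23 without the 3 libraries), with 0 called and 3 at an unadjusted p under 0.05. Under vehicle 24 of the 26 were above 0 (median 0.14), and under fluoxetine 25 (median 0.30). In lithium females all 26 were above 0 (median 0.36), and WT lithium female replicate 2 had the lowest level of the 20 libraries. Without it 24 were above 0 and the female median was 0.19. Of 18 markers of fibroblasts and meninges, all were below 0 in males (median -0.30, 9 at an unadjusted p under 0.05) and 13 were above 0 in females (median 0.08), with 0 called in either sex. Their summed value was 8662 to 10937 in HT males against 9750 to 13757 in WT males, and 0 of them were at 0 in any library. Of 21 inhibitory neuron markers 12 were below 0 in males (median -0.14), with 4 higher and 8 lower at an unadjusted p under 0.05 and 0 called. With the sexes together the 13 excitatory neuron markers were all above 0 (median 0.13), 0 were called and 5 had an unadjusted p under 0.05. In females 9 were above 0 (median 0.09, 0 at an unadjusted p under 0.05), and in males all 13 (median 0.25, 4 at that threshold). Their summed value was 224667 to 250252 in HT females against 212096 to 235442 in WT females and 211636 to 264487 in HT males against 174656 to 227413 in WT males. The part of these marker levels in the changes of the synaptic genes was not tested.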

How the data were processed

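Per the labels' protocols the libraries are TruSeq Stranded mRNA, and Salmon 0.11.2, R 3.6.0 and DESeq2 1.19.11 with build GRCm38 are named in the submitters' processing notes, without settings. The values of the deposited table are signal, here estimated gene counts that the authors scaled between libraries, for 51456 Ensembl identifiers, of which 51285 matched GENCODE M21 models. Whole reads could not be recovered: 50.9% to 71.4% of the low values of a lithium library were whole steps (tolerance 0.1), at an estimated depth of 29 M to 36.3 M reads (M, mega).

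Values were analysed here as log2(value + 1) for genes averaging at least 10 over the 59 libraries. One model with 12 group means (47 residual degrees of freedom) was fitted in R 4.3.3 (limma 3.58.1), with a variance trend and robust empirical Bayes, two-sided. This was the branch planned for normalised values, and the spread is shared by all groups. The script was tested on simulated data. Single values were compared by permutation in SciPy 1.17.1 (Python 3.11.15). Transcript lengths and GC content, and their removal by a spline trend in each library, came from the same annotation.

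The genes named were Ank2, the 12 largest rises and 12 largest falls among called genes averaging at least 50 with 1 sign in both sexes, up to 4 members of each list and up to 5 genes of each difference, by smallest p; some of these genes are not reported here. Members and lists were chosen with earlier results of these data known. The alternatives were only the groups compared, other pseudocounts, filters, scalings and variance models, length and GC content removed, a replicate block and each library left out.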

Additional observations from a re-analysis of the deposited data

Results flagged for a closer look

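In 124 sets of 5 libraries (23 genes of largest change, 7 gene lists and the length slope in each lithium group), 16 had a library far from the other 4 of its group by Dixon's test, where chance gives about 1 in 20. HT lithium female replicate 2 was the highest of its group for Foxp1 (3440) and Arid5b (1203) and the lowest for Uqcr10 (1361) and the olfactory bulb markers (-1.91). HT lithium female replicate 1 had the lowest length slope (-0.003), and HT lithium female replicate 5 the highest striatal (0.27) and myelin marker levels (0.38). Among HT males, replicate 1 stood apart for striatal markers (1.39), replicate 2 for a low Ank3 (11880) and low myelin markers (-0.63), replicate 4 for Dynlt1a (367) and replicate 5 for mt-Nd6 (2228). Among WT females, replicate 5 was high in striatal markers (0.32) and replicate 4 low in immediate early genes (-0.23). WT lithium male replicate 3 was high in mt-Nd6 (1765) and low in Mkrn3 (69.7).

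The genotype effect differed between the sexes under lithium for 118 genes by limma's test of the difference, led by Rpl27 (difference of the log2 changes, males minus females, 0.65), Elob (0.40), Psmb3 (0.38), Cops9 (0.52) and Usmg5 (0.47). Each of these 5 fell in HT females and had a male value between 0.01 and 0.08. The count of 118 ranged from 28 to 267 with single libraries left out. With length and GC content removed it was 18, and Elob (adjusted p = 0.18) and Cops9 (0.058) were not called. The effect under lithium differed from that under fluoxetine for 4 genes: Rps18 (-0.33), Rps14 (-0.34), Elob (-0.24) and Wbp1l (-0.24). Of these, Elob (adjusted p = 0.28) and Wbp1l (0.089) were not called with length and GC content removed.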

How the results depend on the processing

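Ank2 kept its fall under every alternative run (-0.49 to -0.45, and -0.47 to -0.44 with single libraries left out). Counts of called genes moved more, and the cause was not tested except where an alternative tests fewer samples. With only the groups compared, 449 genes were called in the sexes together (93 in the report), 9 in males (2), and 266 for the sex difference (118). Without a filter on low values the counts were 31, 421 in females (646), 23 for the sex difference and 1 for lithium against fluoxetine (4). With library weights they were 1360, 1546 in females, 209 in males, 834 for the sex difference, 217 for lithium against vehicle (0) and 182 against fluoxetine. With length and GC content removed they were 37, 224 and 18 for the sexes together, females and the sex difference. In males a pseudocount of 10 and a minimum mean of 50 each gave 1. Against fluoxetine the minimum of 50 gave 21, and no robust step gave 1. Without the libraries that stood apart, the counts were 16 for the sexes together, 1 for males, 12 for the sex difference and 8 against fluoxetine.

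Leaving out single libraries gave 15 to 141 genes in the sexes together, 333 to 705 in females, 1 to 4 in males, 28 to 267 for the sex difference, 0 to 5 for lithium against vehicle and 0 to 73 against fluoxetine (73 without HT fluoxetine female replicate 1). Of the female counts, 333 was that without HT lithium female replicate 3. With the replicate block, 68 genes were called in the sexes together, 581 in females, 3 in males, 153 for the sex difference, 0 against vehicle and 4 against fluoxetine. The numbers do not pair the samples: over 10 pairs of same-numbered libraries the correlation of deviations was -0.31 to 0.48, 2 exceeded 0.1, and in 1 the own number gave the highest correlation. The ribosomal protein list kept a negative median in females under every alternative run (-0.25 to -0.15), with 21 to 60 genes called lower, and so did oxidative phosphorylation (-0.25 to -0.13, 15 to 60). None of 52 single-gene results changed sign, and 26 lost their call with length and GC content removed, some at a like size (Foxp1 0.30, Prrt2 0.30, Stat5a -0.62), and 29 without the libraries that stood apart. The 52 include results that had no call to lose, namely the differences from the vehicle effect and Rpl26 against fluoxetine. Depth limits genes such as Strc, with under 5 normalised counts in HT males.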
